A study of Mus musculus with 1600 samples.

Results

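The genes described here are 7 genes of lipid phosphate signalling: the lipid phosphate phosphatases Plpp1 and Plpp3, the sphingosine kinase Sphk1, the sphingosine-1-phosphate (S1P) exporter Spns2, the S1P receptors S1pr1 and S1pr3, and the lysophosphatidic acid (LPA) receptor Lpar6. They were chosen by name from the 45792 genes of the deposited tables, with their levels in these same cells already known, so those levels are given as a description and were not tested between cell types. Glomerular cells came from 4 pools of mice, each of 3 animals, all C57BL/6 and Nos3-/-, that is, without endothelial nitric oxide synthase, in the control pools as well. The 2 diabetes pools were from mice made diabetic at 8 weeks of age with streptozotocin, 50 µg per g of body weight daily for 5 days. The 2 control pools were from mice given citrate buffer. All mice were 10 weeks old, and each of 2 experiments held 1 pool of either condition, so n = 2 pools per condition throughout.

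S1P and LPA are lipid mediators that act on cells through G protein-coupled receptors. Sphingosine kinases make S1P inside the cell, Spns2 carries it out of endothelial cells, and the Plpp enzymes remove the phosphate from S1P and LPA at the outer face of the membrane, which ends the signal. S1pr1 couples to Gi and is known for keeping the endothelial barrier tight, while S1pr3 also couples to Gq and G12/13 and is found on vascular smooth muscle and pericytes.

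Cells were caught in wells of a Fluidigm C1 chip and counted by imaging. Wells with 1 cell were kept where 500 or more genes were detected and no more than 30% of reads were mitochondrial. This left 639 wells, 128 and 188 in diabetes pools 1 and 2 and 120 and 203 in control pools 1 and 2 (the pool number is the experiment). The kept wells of the diabetes pools summed to 6.72e+06 and 3.80e+07 reads, against 4.76e+06 and 4.84e+07 in the control pools, so experiment 2 was the deeper in both conditions. Wells were clustered without the genes of 6 lists of this pathway, and clusters were named from fixed markers. Endothelial-like wells numbered 73 and 97 in the diabetes pools and 45 and 83 in the control pools, and mesangial-like wells numbered 10 and 20 against 30 and 65. The remaining wells were podocyte-like, immune-like, smooth muscle or renin cell-like, or fell in a cluster called tubular-like by its markers, in which endothelial markers were also high. The 588 wells without an imaged cell held RNA too, and serve below as the background. Xist was at 1.42 and 1.40 CPM (counts scaled to a sum of 1000000) in the diabetes pools and at 356 and 442 CPM in the control pools, and Y-linked genes were detected almost only in the diabetes pools. The series describes its controls as matched for sex, which these values go against. Diabetes and sex-linked expression therefore cannot be told apart in any comparison of conditions. Nos3 reads were present in all pools (64.8 and 53.2 CPM in diabetes, 41.7 and 62.1 CPM in control), but these are counts of the gene as a whole and leave the knockout unchecked.

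By position on GRCm38 (GENCODE M21), Plpp1 (ENSMUSG00000021759.11) lies at chr13:112800792-112867894 on the plus strand, and Plpp3 (ENSMUSG00000028517.8) lies at chr4:105157347-105232764 on the plus strand. S1pr1 (ENSMUSG00000045092.8) lies at chr3:115710433-115715072 on the minus strand. S1pr3 (ENSMUSG00000067586.3) lies at chr13:51408639-51422797 on the plus strand. Sphk1 (ENSMUSG00000061878.13) lies at chr11:116530925-116536674 on the plus strand, and Spns2 (ENSMUSG00000040447.13) lies at chr11:72451638-72489904 on the minus strand. Lpar6 (ENSMUSG00000033446.7) lies at chr14:73237895-73243294 on the plus strand, inside the retinoblastoma gene Rb1, which runs the other way. Plpp1 overlaps Mtrex and Spns2 overlaps Mybbp1a on the opposite strand. The sources used here do not give whether counting used strand, so reads in those overlaps cannot be assigned with certainty.

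The promoters of Plpp3, high in endothelial-like wells, and of S1pr3, high in mesangial-like wells, are shown because the 2 genes differed in opposite directions between these 2 classes. The promoter table matched 5 of the 7 genes, all but Plpp1 and S1pr1. Sequences are from RefSeq (GRCm38.p6), 5′ to 3′ on the gene's strand, from 250 bases before to 50 after the start, at chr4:105157097-105157396 and chr13:51408368-51408667, both on the plus strand. Capitals mark the letters CCACCC on either strand, the core of the CACCC box that Krüppel-like factors bind.
Plpp3: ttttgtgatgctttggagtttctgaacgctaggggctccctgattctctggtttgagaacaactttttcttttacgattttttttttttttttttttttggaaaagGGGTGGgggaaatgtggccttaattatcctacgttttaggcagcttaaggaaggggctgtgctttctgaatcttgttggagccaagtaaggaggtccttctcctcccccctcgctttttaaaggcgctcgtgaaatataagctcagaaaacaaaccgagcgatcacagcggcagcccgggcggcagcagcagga
S1pr3: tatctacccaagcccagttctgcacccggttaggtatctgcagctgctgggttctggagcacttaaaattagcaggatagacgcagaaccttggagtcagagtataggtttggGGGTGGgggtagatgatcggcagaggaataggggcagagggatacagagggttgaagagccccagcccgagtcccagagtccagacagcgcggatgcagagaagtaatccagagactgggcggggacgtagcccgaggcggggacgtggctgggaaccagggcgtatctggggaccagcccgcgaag
Each window held 1 match, written GGGTGG on the strand shown, and 31.5% of all 32851 promoter windows of this length in the table held at least 1. A second motif, CAGGAA (an ETS factor core, either strand), was found in neither window and in 30.6% of all windows. These matches describe letters in the sequence and are not measured binding sites.

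Plpp1 was the most abundant of the 7 genes and was highest in endothelial-like wells. Per length, its level there was 2710 and 3025 CPM per kb of exon in diabetes pools 1 and 2 and 3160 and 2937 in control pools 1 and 2. Plpp3 had 533 and 335 CPM per kb in the diabetes pools and 633 and 395 in the control pools, and S1pr1 had 123 and 119 against 53.4 and 92.7. Lpar6 (8.31 to 20.5 CPM per kb over the 4 pools) and Spns2 (6.89 to 11) were lower, and S1pr3 (0.135 to 2.47) and Sphk1 (at most 0.0155) were lowest. In endothelial-like wells the order of the phosphatases, S1pr1, and then Lpar6 and Spns2 was therefore the same in each pool, except that Spns2 was above Lpar6 in control pool 2. In mesangial-like wells S1pr3 was at 16 and 63.2 CPM per kb in the diabetes pools and at 101 and 145 in the control pools.

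**Figure D1:**
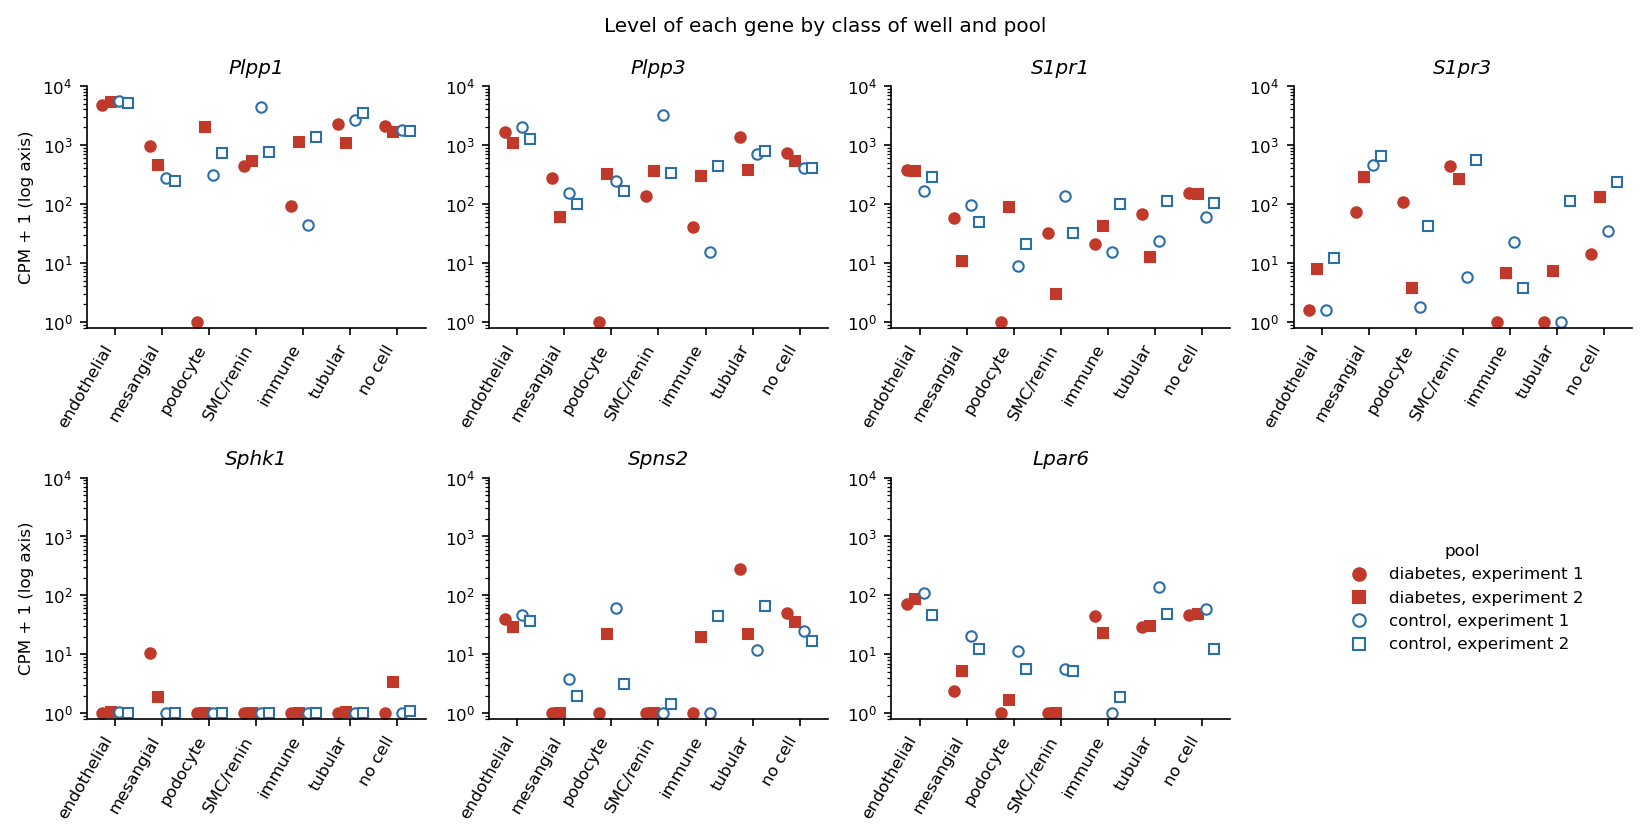
Level of each gene in CPM + 1 (log axis) by class of well, with wells in which no cell was imaged at the right. Each point is the summed counts of 1 pool (filled, diabetes; open, control; circles, experiment 1; squares, experiment 2). Plpp1 in endothelial-like wells lay between 4742 and 5531 CPM in all 4 pools. S1pr3 averaged 362 CPM in mesangial-like wells, the highest mean of a class over pools with at least 5 wells. In smooth muscle or renin cell-like wells S1pr3 ranged from 4.74 to 547 CPM.

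Of the phosphatases, Plpp1 dephosphorylates LPA, S1P and phosphatidic acid. Its level in endothelial-like wells was 4742 and 5294 CPM in diabetes pools 1 and 2, against 5531 and 5140 CPM in control pools 1 and 2. The 4 values lay within a narrow range and the conditions overlapped. In mesangial-like wells Plpp1 was at 965 and 453 CPM in the diabetes pools and 271 and 241 CPM in the control pools. The endothelial-like level was thus 4.92 and 11.7 times the mesangial-like level within the diabetes pools, and 20.4 and 21.3 times within the control pools. Averaged over pools with at least 5 wells, Plpp1 was at 5177 ± 331 CPM in endothelial-like wells (SD, n = 4 pools), 2363 ± 1003 in tubular-like wells (n = 4), 1021 ± 895 in podocyte-like wells (n = 3), 645 ± 674 in immune-like wells (n = 4) and 482 ± 335 in mesangial-like wells (n = 4). The endothelial-like range did not overlap that of any of these classes, whereas neighbours further down this order overlapped. Smooth muscle or renin cell-like wells averaged 2618 CPM over 2 pools, of which 1 pool was at 4476 CPM with 94.4% of its counts from 1 well.

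Plpp3, whose product acts on LPA and S1P and is known from mouse for its role in vessel development, was at 1683 and 1060 CPM in endothelial-like wells of the diabetes pools and at 1999 and 1248 CPM in those of the control pools. In both experiments the diabetes pool was below its control pool, and experiment 1 was above experiment 2 in both conditions. Its mesangial-like level was 273 and 59.9 CPM in the diabetes pools and 155 and 97.9 CPM in the control pools, so the endothelial-like level was 6.15 and 17.7 times higher in diabetes and 12.9 and 12.7 times in control. In tubular-like wells Plpp3 averaged 809 ± 415 CPM (SD, n = 4 pools). Its range there, 373 to 1369 CPM, overlapped the endothelial-like range of 1060 to 1999 CPM. In smooth muscle or renin cell-like wells the mean over 2 pools was 1790 CPM with a range from 331 to 3249, which also overlapped the endothelial-like range. The higher value, of control pool 1, owed 96.5% of its counts to 1 of 6 wells, and the endothelial marker sum of those wells was 11806 CPM. The part of that marker level in the Plpp3 value was not tested. Single endothelial-like wells spread widely around the sums. The middle 50% of wells held 2336 to 6628 and 3126 to 6504 CPM of Plpp1 in the diabetes pools, against 1943 to 6800 and 2776 to 6442 CPM in the control pools.

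At least 1 count of Plpp1 was found in 98.7% of the 298 endothelial-like wells (exact Clopper-Pearson 95% interval 96.6 to 99.6), and of Plpp3 in 98% (95.7 to 99.3). These intervals treat wells as the units counted and hold no error between pools. Plpp1 reads were also found in 80.6% of 588 wells with no cell, at a median depth of 5033 reads against 125940 in endothelial-like wells, so detection alone says little for this gene. Mean reads per well can be set against those of wells with no cell, but the ratio also carries the difference in total reads. In CPM, Plpp1 in wells with no cell was at 2065 and 1646 in diabetes and 1824 and 1713 in control. The endothelial-like level was above these values in each pool, and the mesangial-like level was below them. Plpp1 had 215 and 1113 reads per endothelial-like well in the diabetes pools, which was 27.8 and 14.1 times the mean of wells with no cell of the same pool. In the control pools it had 199 and 1314 reads per well, 28.1 and 19.2 times that mean. In mesangial-like wells the same ratio was 9.12 and 1.67 in diabetes and 1.35 and 0.802 in control, so Plpp1 reads there were near the number in wells with no cell in every pool but diabetes pool 1. The 10 mesangial-like wells of that pool owed 82.5% of their Plpp1 counts to 1 well.

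**Figure D2:**
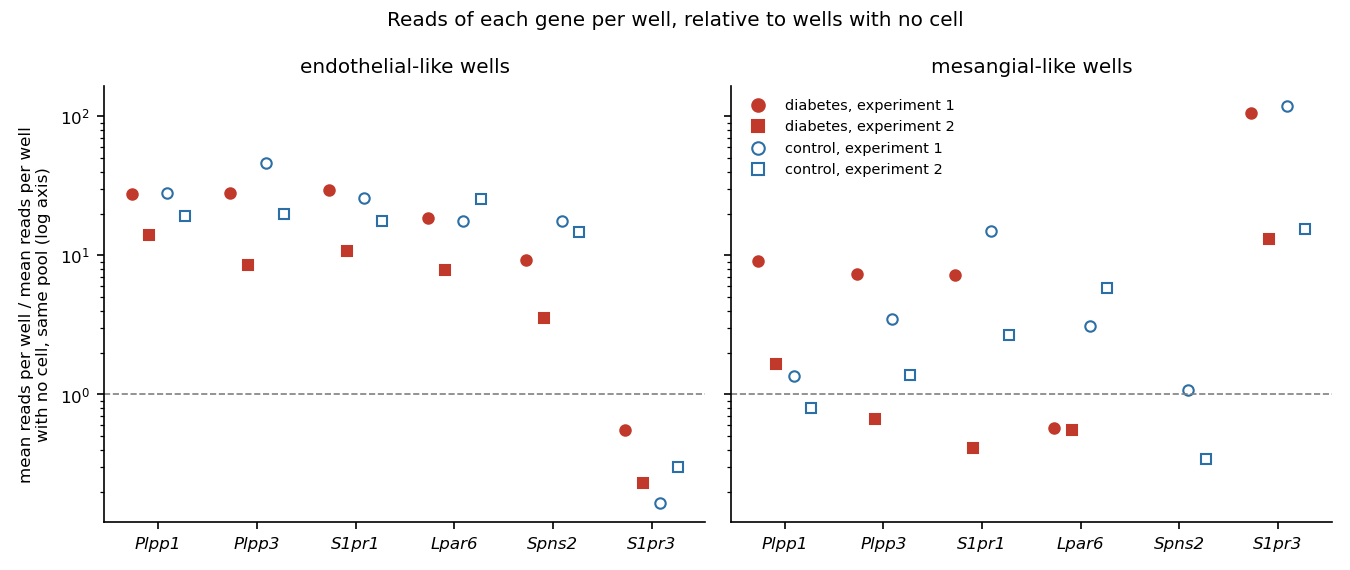
Mean reads of each gene per endothelial-like (left) or mesangial-like (right) well, divided by the mean in wells with no cell of the same pool (log axis; dashed line, equal; symbols as for levels). Points at a ratio of 0 are not drawn: both diabetes pools for Spns2 in mesangial-like wells. In endothelial-like wells the ratio was above 1 in all pools for Plpp1, Plpp3, S1pr1, Spns2 and Lpar6 and below 1 in all pools for S1pr3. Sphk1 was at 0.103 in diabetes pool 2 and 0.829 in control pool 2 and has no ratio in experiment 1, where wells with no cell held no read of it. In mesangial-like wells the ratio was highest for S1pr3, between 13.1 and 119. The ratio also carries the difference in total reads between such wells. In CPM, Spns2 in endothelial-like wells was below wells with no cell in both diabetes pools.

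Sphk1, which phosphorylates sphingosine to S1P, was hardly detected. At least 1 count was found in 3 of 639 kept wells, or 0.469% (exact 95% interval 0.0969 to 1.37), and in 4 of 588 wells with no cell, or 0.68% (0.186 to 1.73). The share was thus no higher than background. Of the 3 wells, 2 were mesangial-like wells of the diabetes pools and 1 was an endothelial-like well of diabetes pool 2. The highest level in any class was 9.55 CPM, in mesangial-like wells of diabetes pool 1, and rested on 7 counts of 1 well. Sphk1 did not pass the filter on low counts and was not tested between conditions.

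Spns2, the S1P transporter of endothelium, was at 38.1 and 28.1 CPM in endothelial-like wells of the diabetes pools and at 45.1 and 36.3 CPM in those of the control pools. The diabetes pool was the lower in both experiments, but the conditions overlapped. It was nearly missing from mesangial-like wells, with 0 counts in both diabetes pools and 2.83 and 0.949 CPM in the control pools. Spns2 was detected in 25.5% of endothelial-like wells (20.7 to 30.8), against 7.2% of mesangial-like wells (3.35 to 13.2), whose median depth was similar at 130040 reads. Wells with no cell had it in 12.4%, at lower depth. Their Spns2 level was 49.3 and 34.9 CPM in diabetes, above the endothelial-like level, and 23.8 and 15.8 CPM in control, below it. When all wells were thinned to 10000 reads, 11.9% of 285 endothelial-like wells, 0.826% of 121 mesangial-like wells and 11% of the 228 wells with no cell that were deep enough held Spns2. In tubular-like wells Spns2 was uneven, at 284 and 21 CPM in the diabetes pools and 11 and 65.6 CPM in the control pools. In each of these 4 sums at least 50.3% of the counts came from 1 well.

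S1pr1, the main S1P receptor of endothelium, was at 374 and 362 CPM in endothelial-like wells of diabetes pools 1 and 2, against 163 and 282 CPM in control pools 1 and 2. Both diabetes pools were above both control pools. It was detected in 74% and 89.7% of wells in the diabetes pools and in 48.9% and 83.1% of wells in the control pools. At 10000 reads per well these shares were 65.7% and 68% in diabetes and 47.4% and 54.2% in control, so the order held at equal depth. The median well held 226 and 221 CPM in the diabetes pools and 0 and 108 CPM in the control pools. Over all pools S1pr1 was found in 77.9% of endothelial-like wells (72.7 to 82.4), 46.4% of mesangial-like wells and 35.9% of wells with no cell, and after thinning in 60.7%, 17.4% and 42.1%. In wells with no cell S1pr1 was also the higher in diabetes, at 152 and 147 CPM against 58.2 and 102 CPM in control.

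The endothelial-like class was made of 3 clusters, led by Emcn and Ly6c1 (172 wells), by Kdr and Adgrf5 (53 wells) and by Ly6c1, Gpihbp1 and Fabp4 (73 wells). S1pr1 was higher in the diabetes pool within each cluster and each experiment. In the first it was at 341 and 298 CPM in diabetes and 187 and 242 CPM in control, in the second at 452 and 337 against 80.7 and 258 CPM, and in the third at 356 and 427 against 127 and 394 CPM. These sums split the same pools, and some are small. Control pool 1 held 17 S1pr1 counts, in 3 of 9 wells, in the second cluster and 36 counts over 8 wells in the third. The summed level of 12 endothelial markers in the endothelial-like sums was 20312 and 16561 CPM in diabetes and 16987 and 19180 CPM in control, and the conditions overlapped. The immune marker sum was higher in both diabetes pools there (386 and 253 CPM, against 115 and 89.1 CPM in control, 11 markers, of which 1 was at 0 in control pool 1). The sum of 4 erythroid markers was 13051 and 26.7 CPM in diabetes and 0 and 24.5 CPM in control, so it was high in diabetes pool 1 alone. The part of either list in the S1pr1 difference was not tested.

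S1pr3 had the opposite distribution. Mesangial cells are the contractile pericytes of the glomerular tuft. In mesangial-like wells S1pr3 was at 71.6 and 282 CPM in the diabetes pools and at 450 and 646 CPM in the control pools. Both diabetes pools were below both control pools. It was detected in 30% and 90% of wells in the diabetes pools and in 60% and 87.7% of wells in the control pools, so the order by detection did not hold in experiment 2. In wells with no cell S1pr3 was also the lower in diabetes in both experiments, at 13.2 and 131 CPM against 34.4 and 235 CPM in control. In control pool 2 the median well with no cell held 3 S1pr3 reads, against 68 in the median mesangial-like well. Reads per well were 106 and 13.1 times those of wells with no cell in the diabetes pools, and 119 and 15.6 times in the control pools. In endothelial-like wells S1pr3 was at 0.604 and 6.92 CPM in diabetes and at 0.618 and 11 CPM in control, and its reads per well were 0.553 and 0.232 of those in wells with no cell in diabetes and 0.167 and 0.3 in control. S1pr3 was therefore at or below background in endothelial-like wells in each pool. Smooth muscle or renin cell-like wells held 435 and 263 CPM in the diabetes pools (3 wells each) and 4.74 and 547 CPM in the control pools (6 wells each).

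The mesangial-like wells of the diabetes pools differed from those of the control pools in more than S1pr3. The summed level of 10 mesangial markers was 4520 and 8974 CPM in diabetes and 15302 and 13256 CPM in control, so it was lower in both diabetes pools as S1pr3 was, with 1 marker at 0 in each diabetes pool. The fibroblast marker sum (6 markers) was 12042 and 1448 CPM in diabetes and 4656 and 1097 CPM in control. The endothelial marker sum (12 markers, none at 0) was 4483 and 2002 CPM in diabetes and 1896 and 2585 CPM in control. In a finer clustering a fibroblast-like cluster of 20 wells separated, which left 5 mesangial-like wells in diabetes pool 1 and 20 in diabetes pool 2, against 26 and 62 in the control pools. S1pr3 was then at 145 and 282 CPM in diabetes and 491 and 665 CPM in control, still without overlap. The part of these other markers in the S1pr3 difference was not tested.

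**Figure D3:**
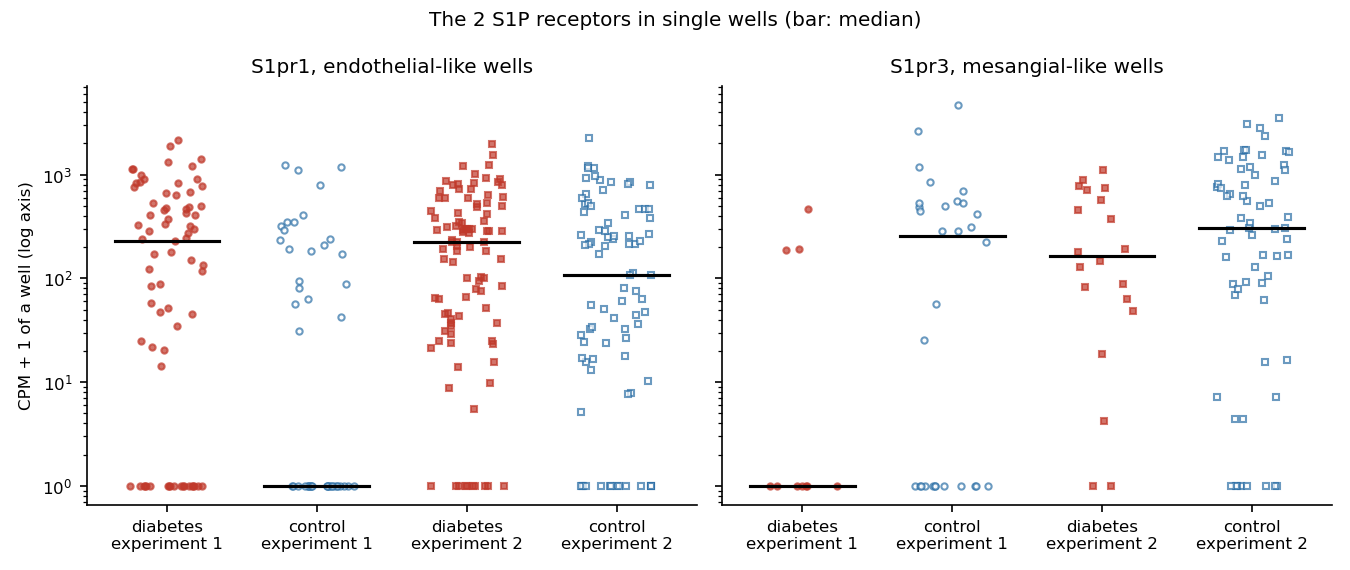
CPM + 1 (log axis) of S1pr1 in single endothelial-like wells (left) and of S1pr3 in single mesangial-like wells (right), by pool. Each point is 1 well, placed at random across its column, and bars are medians. The median of S1pr1 was 226 and 221 CPM in the diabetes pools and 0 and 108 CPM in the control pools, and that of S1pr3 was 0 and 163 CPM in the diabetes pools and 254 and 307 CPM in the control pools.

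Lpar6, a receptor for LPA that is known from human for a role in hair growth, was at 71.1 and 84.6 CPM in endothelial-like wells of the diabetes pools and at 111 and 44.9 CPM in those of the control pools. The conditions overlapped and the direction differed between the experiments. It was detected in 34.6% of endothelial-like wells (29.2 to 40.3), 14.4% of mesangial-like wells (8.76 to 21.8) and 16.8% of wells with no cell. After thinning to 10000 reads the shares were 18.9%, 4.96% and 18%, so at equal depth endothelial-like wells were near wells with no cell. Thinning removes the difference in the amount of RNA between such wells. Lpar6 reads per endothelial-like well were 18.5 and 7.86 times those of wells with no cell in the diabetes pools. In the control pools they were 17.6 and 25.5 times. Among immune-like wells Lpar6 was found in 8 of 27 and 18 of 40 wells of the diabetes pools and in 0 of 5 and 1 of 6 wells of the control pools. The control pools held too few immune-like wells for a comparison, and none was made. In tubular-like wells Lpar6 averaged 61.4 ± 53.5 CPM (SD, n = 4 pools, 28.2 to 140). In endothelial-like wells it averaged 77.8 ± 27.4 CPM (n = 4, 44.9 to 111), and the 2 ranges overlapped. The gene lies inside Rb1, which was at 20.5 and 15.1 CPM in endothelial-like wells in diabetes and at 47.3 and 21.2 CPM in control, and its part in the Lpar6 counts was not tested.

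The effect of diabetes was tested in the 2 classes with 10 or more wells in every pool, on counts summed per pool, with edgeR's quasi-likelihood test, the experiment as a block and Benjamini-Hochberg adjustment over all genes tested. In endothelial-like wells 0 of the 6 members tested passed an adjusted p of 0.05, against 2 of all 12631 genes (0.0158%), which were Xist and the immunoglobulin gene Igha. Without adjustment, 0 of the 6 had a p under 0.05, where 4.31% of all genes did. DESeq2 also called 0 of the 6, against 0.53% of all genes. S1pr1 had a log2 fold change, diabetes over control, of 0.81 (SE 0.37, unadjusted p = 0.0556, adjusted p = 1.00). It was the only member whose diabetes pools both lay above the control pools, which 16.6% of all genes did, and 0 members lay wholly below, where 14.2% of all genes did. The change was 0.32 to 1.29 over 15 alternative settings, with adjusted p from 0.368 to 1. For Plpp1 the log2 change was -0.06 (SE 0.22) and for Plpp3 it was -0.21 (SE 0.26), so both were close to the median of all genes, 0.06. Spns2 (-0.27, SE 0.81), Lpar6 (0.18, SE 0.61) and S1pr3 (-0.39, SE 2.14) had errors larger than their changes.

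In mesangial-like wells 0 of the 5 members tested passed, and edgeR called 0 of 10578 genes (0%). With DESeq2 0 of the 5 were called, against 79 of all genes (0.747%). Without adjustment 2 of the 5 had a p under 0.05, where 3.55% of all genes did. S1pr3 had a log2 fold change of -1.89 (SE 0.57, unadjusted p = 0.0116, adjusted p = 1.00 by edgeR and 0.134 by DESeq2). It was negative under all 15 alternatives, between -3.02 and -0.81. Plpp1 had a change of 1.39 (SE 0.45, unadjusted p = 0.0155, adjusted p = 1.00 by edgeR and 0.194 by DESeq2). That value rested on few wells. Without the well of most counts in each pool, a check chosen after seeing the data, Plpp1 was at 194 and 385 CPM in diabetes and 178 and 200 CPM in control, and the conditions overlapped. In the finer clustering its log2 change was -0.31, where the well that held most of its counts in diabetes pool 1 was in the fibroblast-like cluster, and it was 0.10 with at most 15% mitochondrial reads. S1pr1 (-1.49, SE 1.13), Lpar6 (-2.45, SE 2.39) and Plpp3 (0.07, SE 0.70) did not pass either. S1pr3 and Lpar6 were lower in both diabetes pools than in both control pools, as 19.3% of all genes were, and Plpp1 was higher, as 13.7% of all genes were. An exact permutation test of 2 pools against 2 cannot give a p under 0.333, so none was made for single genes.

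**Figure D4:**
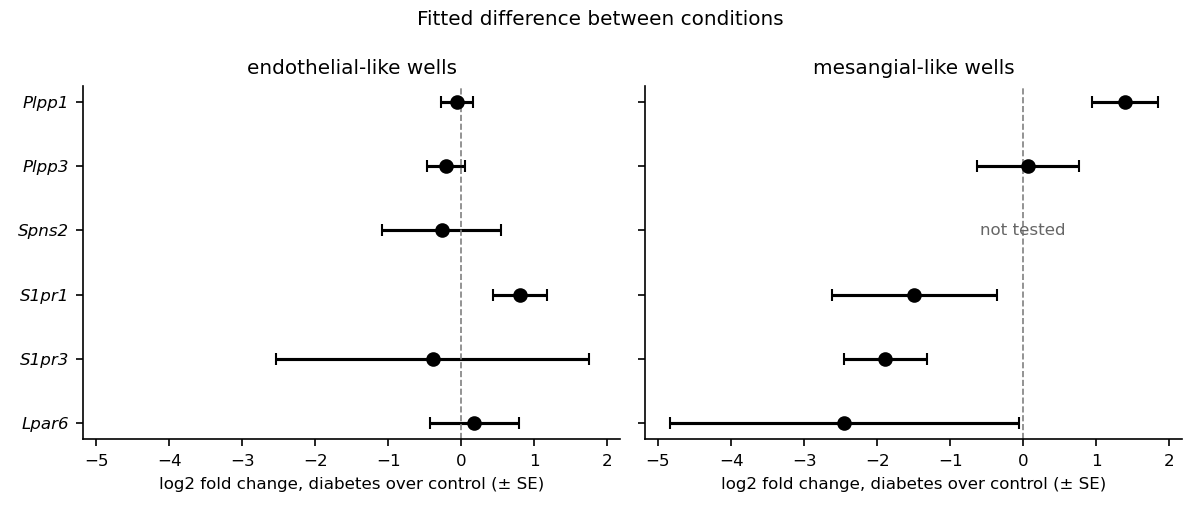
Fitted log2 fold change, diabetes over control, with its SE, for each member tested in endothelial-like (left) and mesangial-like (right) wells. Spns2 was not tested in mesangial-like wells and Sphk1 in neither class. S1pr1 was at 0.81 in endothelial-like wells and S1pr3 at -1.89 in mesangial-like wells, and neither passed adjustment over all genes.

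Experiment 1 held spike-in RNA, which gives a scale that does not rest on the other genes. On this scale S1pr1 summed to 1.74 reads per 1000 spike-in reads in endothelial-like wells of the diabetes pool and to 0.596 in those of the control pool. Plpp1 summed to 22.1 in diabetes and 20.3 in control, and Plpp3 to 7.84 in diabetes and 7.33 in control. S1pr3 in mesangial-like wells summed to 0.677 in diabetes and 1.56 in control. Spns2 summed to 0.177 in endothelial-like wells in diabetes and 0.165 in control, and Lpar6 to 0.331 in diabetes and 0.405 in control. The directions of S1pr1, S1pr3 in mesangial-like wells and Lpar6 were those seen in CPM in experiment 1. Those of Plpp1, Plpp3 and Spns2 in endothelial-like wells were the reverse, since in CPM their diabetes pool was below the control pool. With 1 pool per condition on this scale there is no replicate check.

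Beyond the 7 genes, the 6 pathway lists held 37 others, of which 24 were tested in endothelial-like and 26 in mesangial-like wells. In both classes 0 rose and 0 fell by edgeR. In endothelial-like wells both diabetes pools lay above both control pools for 7 of the 24 and below for 2, against 16.6% and 14.2% of all genes. In mesangial-like wells they lay above for 3 of the 26 and below for 2, against 13.7% and 19.3% of all genes. Among S1P making and breakdown, 7 of 9 genes were tested in each class. The enzyme Acer2, an alkaline ceramidase that releases sphingosine, stood out for its values. It was at 794 and 584 CPM in endothelial-like wells of the diabetes pools, against 205 and 316 CPM in those of the control pools. In mesangial-like wells it was at 312 and 253 CPM in diabetes and 30.2 and 41.5 CPM in control. Diabetes pools were above control pools in both classes, as 16.6% of all genes were in endothelial-like and 13.7% in mesangial-like wells. The log2 changes were 1.45 (SE 0.36, unadjusted p = 0.00291) and 3.00 (SE 0.66, unadjusted p = 0.00233), each with an adjusted p of 1.00 by edgeR, while DESeq2 gave adjusted p of 0.0346 and 0.00438. The mesangial-like change was -0.53 with at most 15% mitochondrial reads, 0.19 with no filter on wells and 0.44 in the finer clustering. Acer2 was found in 81.9% of endothelial-like wells, 44% of mesangial-like wells and 43% of wells with no cell. Its share in mesangial-like wells was thus near that of wells with no cell, though at greater depth. Median reads were 130040 in mesangial-like wells and 5033 in wells with no cell, and shares of Acer2 at equal depth are not given here.

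Of the other enzymes, the S1P phosphatase Sgpp1 was at 190 and 189 CPM in endothelial-like wells of the diabetes pools and 347 and 143 CPM in those of the control pools, and acid ceramidase Asah1 was at 139 and 55.2 CPM against 256 and 68.9 CPM. Sgpl1, the lyase that breaks S1P down for good, was at 28.7 and 19.6 CPM in diabetes and 11.1 and 40.6 CPM in control, with a higher level in mesangial-like wells (142 and 94.2 CPM against 36.8 and 104 CPM). Acer3 was at or under 14 CPM in endothelial-like wells of all pools. In the export list, Abca1, a lipid exporter, was at 112 and 43.5 CPM in mesangial-like wells in diabetes and 6.61 and 7.21 CPM in control (log2 change 3.33, SE 1.34, adjusted p = 1.00 by edgeR). Of the S1P receptor list, 4 of 5 genes were tested in endothelial-like and 3 of 5 in mesangial-like wells, and S1pr1 and S1pr3 were the only ones found in 25% or more of the wells of a class with at least 20 wells. In the LPA list 3 and 6 of 10 genes were tested in the same classes, and in the phosphatase list 5 of 7 in each.

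All 8 genes of the list of receptor coupling and flow-induced factors were tested in both classes. Gnai2, the Gi protein subunit, was at 1064 and 830 CPM in endothelial-like wells in diabetes and 888 and 987 CPM in control (log2 change 0.04, SE 0.28). The small GTPases Rac1 (-0.10, SE 0.29) and Rhoa (-0.25, SE 0.39), Gna12 (0.44, SE 0.65) and Gna13 (0.73, SE 0.64) did not pass. Grk2, a kinase that desensitises such receptors, was at 119 and 102 CPM in diabetes and 55.8 and 47 CPM in control, with diabetes above control (log2 change 1.14, SE 0.52, adjusted p = 1.00 by edgeR). Both diabetes pools were above both control pools for 16.6% of all genes in this class. The flow-induced factors Klf2 (349 and 355 CPM in diabetes, 787 and 287 CPM in control) and Klf4 (237 and 96.8 CPM in diabetes, 446 and 190 CPM in control) were detected in 85.6% and 61.7% of endothelial-like wells, against 40.5% and 29.1% of wells with no cell. Klf4 was lower in diabetes in both experiments (log2 change -0.91, SE 0.36, unadjusted p = 0.0328, adjusted p = 1.00 by edgeR), and its groups overlapped.

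Likeness was measured as Pearson's r of log2(CPM + 1) over 21 sums of class and pool with at least 5 wells, among 7417 genes with a mean of at least 20 CPM. The sums share libraries and depth, so r is a description. Nearest to Plpp1 were Gimap4 (0.96), Emcn (0.95) and Plpp3 (0.94), and nearest to Plpp3 were Plpp1 (0.94), Kdr (0.91) and Cyp4b1 (0.91). Nearest to S1pr1 were Exoc3l2 (0.86), Kank3 (0.81) and Arhgap31 (0.81). S1pr3 was nearest to Cspg4 (0.90), Itga8 (0.88) and Gucy1a2 (0.88). Spns2 was nearest to Ushbp1 (0.82), Btnl9 (0.77) and Plekho1 (0.74), and Lpar6 to Cog6 (0.80), Ankrd29 (0.79) and Hras (0.78). For Sphk1, with a mean of 0.507 CPM, the nearest were Lum (0.87), Fmo2 (0.84) and Ccn4 (0.71), and these values rest on a handful of counts. Among the members themselves, S1pr1 had r of 0.71 with Plpp1 and 0.69 with Plpp3. S1pr3 had negative r with Plpp1, Plpp3, S1pr1, Spns2 and Lpar6, from -0.53 with Spns2 to -0.13 with S1pr1.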

How the data were processed

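RNA of single glomerular wells (Fluidigm C1) was measured in 4 pools of 3 mice. The authors' deposited tables, 1 per experiment, hold expected counts, that is, read counts of each gene in each well that can be fractional (74.1% and 79.3% of values above 0 were whole in experiments 1 and 2), and the deposited spike-in table for experiment 1 holds counts of reads on 95 sequences. The submitters' processing notes list featureCounts 1.5.1, STAR 2.4.2a, cutadapt 1.11 and BWA 0.7.17-r1188, with build mm10; the sources used here do not give strand or multi-mapping settings. Of 45792 identifiers 45143 matched GENCODE M21. The tables cover 1600 wells, each of 1 pool.

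Wells were filtered as in the report (median reads 43577 and 176715 in the diabetes pools, 32222 and 219072 in the control pools). On a log2 scale, of counts per 10000 plus a pseudocount of 1, 2000 genes outside the pathway lists were taken. They were those of high normalised dispersion (variance relative to the mean), ranked within each experiment. Each gene was centred and scaled within each experiment. Then 15 components, 15 neighbours and Leiden resolution 0.8 gave clusters (scanpy 1.11.5, Python 3.11.15). Clusters were named by the marker list with most genes among the top 50, where at least 3 markers were in 25% of wells and 1 was in the top 10. No doublet caller was run, since cells were counted by imaging. CPM are of summed counts. Sums per class and pool were rounded and tested with edgeR 4.0.16 (R 4.3.3; TMM, filterByExpr, robust quasi-likelihood), and DESeq2 1.42.0 was an alternative. The experiment number in the labels pairs the pools; deviations from the condition means of same-numbered pools had r of 0.14 over endothelial-like and 0.11 over mesangial-like genes. With 2 pools per condition, edgeR p-values rest only in part on a gene's own spread between pools, taken after the experiment block. The larger part was spread shared over genes, worth 8.13 degrees of freedom at the median in endothelial-like wells and 6.37 in mesangial-like wells. The fit was tested on simulated data before use, with the same spread between pools set for every gene. That setting is simpler than these data, and its outcome is not given here. Reads were counted without molecular identifiers and can be copies of 1 molecule, so intervals cover counting error only.

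The members and all lists were chosen with earlier results of these data known. Named pathway genes are those called in either fit, or with a count in 25% or more of the kept wells of a named class of at least 20 wells; for each member the 3 genes of highest r are named. Alternatives covered scaling, tool, block, filters, depth, clustering, single replicates and subtraction of the profile of wells with no cell.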

Additional observations from a re-analysis of the deposited data

Results flagged for a closer look

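S1pr1 was higher in the diabetes pool in endothelial-like wells and lower in mesangial-like wells in both experiments (374 and 362 CPM in diabetes against 163 and 282 CPM in control in the first class, 55.9 and 9.95 CPM against 95.4 and 47.5 CPM in the second). The log2 fold changes differed by 2.30. Gna13 went the same way, with a difference of 2.08, and Asah1 the opposite way, with -1.31. These genes were picked for opposite directions in both experiments, among the members and the named pathway genes tested in both classes. The share of all genes with such a pattern was not counted. These differences between the classes were not tested. Leaving the well of most counts out of each pool, S1pr1 in mesangial-like wells was at 7.83 and 4.81 CPM in diabetes and 47.9 and 34.7 CPM in control. S1pr1 reads per mesangial-like well were 7.18 and 0.411 times those of wells with no cell in the diabetes pools. In the control pools they were 14.9 and 2.66 times, so by reads per well only diabetes pool 2 was below background. This ratio also carries the greater depth of wells with a cell. In CPM, wells with no cell held 152 and 147 in diabetes and 58.2 and 102 in control. On that scale only control pool 1 had more S1pr1 in mesangial-like wells than in wells with no cell.

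Wells imaged with 2 cells entered no comparison. Their CPM of Plpp1 and Plpp3 was above that of wells with no cell in all 4 pools, by a factor of at least 1.02 for Plpp1 and 1.07 for Plpp3. In wells labelled with more than 2 cells or debris the order was not the same. Plpp1 was at 1261 and 1128 CPM in diabetes and 980 and 1088 CPM in control, below wells with no cell in all 4 pools (2065 and 1646 CPM in diabetes, 1824 and 1713 CPM in control). Plpp3 was at 253 and 357 CPM in diabetes and 633 and 239 CPM in control, below wells with no cell in 3 of 4 pools (724 and 544 CPM in diabetes, 404 and 403 CPM in control). Over the 98 wells with 2 cells, S1pr1 was found in 58 and S1pr3 in 34.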

How the results depend on the processing

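No member passed the threshold in either class under any of the 15 alternatives in which it could be fitted. Numbers over all genes moved. In endothelial-like wells edgeR called 2 genes with the experiment as a block and 0 with no replicate block; 1 with RLE scaling, 67 with DESeq2, 22 with no filter on low counts, 0 with wells thinned, weighted equally or limited to 15% mitochondrial reads, 1 with no filter on wells, 9 at Leiden resolution 1.2, and 0 with pathway genes kept in the clustering or the profile of wells with no cell subtracted. In mesangial-like wells, with 0 called, DESeq2 called 79, no filter on low counts 7, thinned wells 1, no filter on wells 20 and Leiden resolution 1.2 12. Leaving out each pool in turn, in fits without the block, gave 11 to 186 genes in endothelial-like wells (186 without control pool 2) and 7 to 32 in mesangial-like wells; the lone pool is then assumed to vary like the others. The paired fit changed no call of a member. Log2 changes of members, none of them called, turned round 21 times and kept their direction 140 times. In endothelial-like wells these were Plpp1 when thinned (0.03), weighted equally (0.03), with 15% mitochondrial reads (0.02), or leaving out a pool (-0.24 to 0.13); Plpp3 leaving out a pool (-0.46 to 0.05); S1pr3 at resolution 1.2 (0.21) or leaving out a pool (-3.42 to 2.79); Spns2 when thinned (0.26), weighted equally (0.19), with 15% mitochondrial reads (0.22) or with no filter on wells (0.08); and Lpar6 with 15% mitochondrial reads (-0.08) or leaving out a pool (-0.38 to 0.75). In mesangial-like wells they were Plpp1 at resolution 1.2 (-0.31, against 6.75 with subtraction of the profile of wells with no cell), Plpp3 with no filter on wells (-0.55), at resolution 1.2 (-1.38), with subtraction (-2.80) or leaving out a pool (-0.91 to 1.06), and Lpar6 with equal weights (0.74). The cause was not tested. Levels held within their spread between pools, except that Plpp1 in endothelial-like wells was 4767 CPM as a mean of single wells, Plpp3 was in 95.8% of them with at least 2 counts, and Spns2 was 25.5 CPM without the well of most counts in each pool, a setting chosen after seeing the data. With a minimum of 100 CPM the highest r was 0.88 for S1pr3, 0.66 for Sphk1, 0.74 for Spns2 and 0.76 for Lpar6, each with another gene. Median reads per kept well were 43577 in diabetes and 32222 in control in experiment 1, against 176715 and 219072 in experiment 2, so a gene not detected in a well of experiment 1 may lie under its depth.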
